A study of Mus musculus with 12 samples.

Results

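The proteins of the cytosolic ribosome are encoded, with few exceptions, by genes whose symbols begin with Rpl (large subunit) or Rps (small subunit). Protein-coding genes with Rpl or Rps and a digit, together with Rplp0, Rplp1, Rplp2 and Rpsa, were taken from the count table, leaving out the Rps6k kinases and the pseudogenes. This gave 85 of 46517 genes, 52 of the large and 33 of the small subunit. Expression was high enough to test 82 of them, 49 large and 33 small. The 3 that were not tested in the main fit, Rpl3l, Rpl39l and Rpl10l, are paralogs known mainly from muscle or testis.

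The libraries are bulk RNA sequencing of macrophages sorted from adult wild type C57/BL6 mice by CD45, CD64, MerTK, CD11b and F4/80, with dead cells gated out. They form 4 groups of 3 libraries: LYVE1+ and LYVE1- cells of the aorta, from 30 mice, and LYVE1+ and LYVE1- cells of epididymal and subcutaneous fat, from 20 mice. No agent or allele distinguishes the groups. Every library was made by Smart-seq2, a full-length method, from 2 ng of RNA and read in pairs of 51 cycles. Whether each library had its own pool of mice is not stated, so p-values measure only the spread between these libraries, which may be technical.

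In the ribosome the small subunit reads the messenger RNA and the large subunit joins the amino acids. The proteins are made in matched amounts, and their messenger RNAs mostly begin with a C followed by a run of pyrimidines, the 5′ terminal oligopyrimidine (TOP) tract, through which the growth-sensing kinase mTOR controls their translation. Resting tissue macrophages divide little, and ribosomal protein levels are commonly read as a sign of growth, although messenger RNA levels alone do not give the rate of protein synthesis.

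Total counts ran from 5049936 to 29792301 per library. The genes of the gate, Adgre1, Ptprc, Itgam, Mertk and Fcgr1, and the macrophage gene Csf1r were counted in every library, with a lowest level of 70.4 CPM (counts scaled to library size), for Fcgr1. In fat, the libraries numbered 1 of both sorts stood apart. Mitochondrial genes took 8.85% of counts in fat LYVE1+ library 1 and 12.1% in fat LYVE1- library 1, against 1.79 to 3.2% in the other 10. Summed erythroid markers reached 26000 CPM in fat LYVE1+ library 1 and 5280 CPM in fat LYVE1- library 1, against 1.88 to 1400 CPM in the others. The main fat results are therefore also given without both of them.

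The 5′ ends of 4 members that the comparisons turn on are shown because the start of the transcript is where this gene family shares a sequence feature. Each line runs from 20 bases before to 30 bases after the RefSeq start (GRCm38.p6), and capitals mark the longest run of at least 6 pyrimidines that begins with C, or both runs where 2 tie.
Rps26, chr10:128626477-128626526, minus strand: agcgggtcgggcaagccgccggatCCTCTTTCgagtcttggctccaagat
Rpl39, chrX:37085193-37085242, minus strand: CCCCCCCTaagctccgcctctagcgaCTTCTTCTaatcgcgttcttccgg
Rpsa, chr9:120127746-120127795, plus strand: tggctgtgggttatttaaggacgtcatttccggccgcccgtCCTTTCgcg
Rpl7l1, chr17:46782627-46782676, minus strand: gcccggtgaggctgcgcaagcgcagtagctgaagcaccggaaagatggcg
The run begins at base 5 of the annotated transcript of Rps26 and at base 22 of that of Rpsa, and Rpl39 has 2 runs of 8 bases, 1 before the annotated start and 1 from base 7 of the transcript. Rpl7l1, the paralog with the highest log2 fold change in the aorta, had no such run. Neither had Rplp0 (window not shown), which was lower in fat LYVE1+ cells (log2 fold change -0.56). Whether the run goes with the direction of change was not tested. Among the 62 tested members with a start window, 44 (71.0%) held such a run on the transcribed strand, against 33.7% of 10187 other tested genes. Over the 300 bases around the start, on both strands, the ETS core CCGGAAG was present in 24 (38.7%) of these members against 18.1% of the other genes. The GC box GGGCGG was present in 38 (61.3%) against 62.8%. The YY1 core AAGATGGC was present in 5 (8.06%) against 4.72%, and TATAAA in 6 (9.68%) against 7.36%. These are descriptions of letters in a window, not of bound sites.

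The members together took about 1% of all gene counts, and the share was on average smaller in LYVE1+ than in LYVE1- cells of both tissues, with overlap between the sorts. In the aorta the share was 0.965, 0.934 and 1.11% in LYVE1+ libraries 1 to 3, against 1.08, 1.18 and 1.21% in LYVE1- libraries. LYVE1+ library 3 lay above LYVE1- library 1, so the aortic groups overlap. In fat it was 1.22, 0.846 and 0.76% in LYVE1+ libraries, against 1.38, 1.04 and 1.09% in LYVE1- libraries. Both libraries numbered 1 were the highest of their sort, and each fat LYVE1+ library lay below the LYVE1- library of the same number. The group average in fat was 0.942 ± 0.245% in LYVE1+ cells and 1.17 ± 0.181% in LYVE1- cells (SD, n = 3 each). The large and small subunits kept step: the ratio of their counts stayed between 1.32 and 1.41 in the 12 libraries. In bulk samples, fewer cells of a type and less RNA per cell cannot be told apart.

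**Figure D1:**
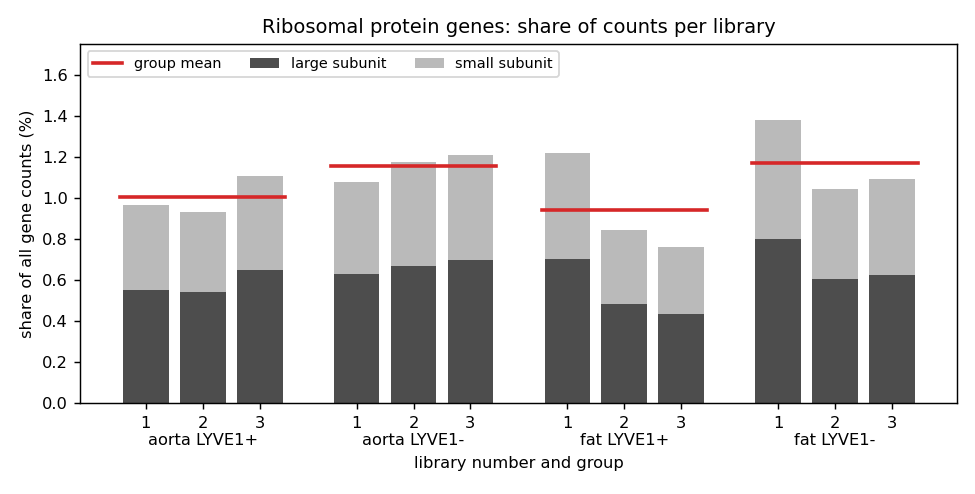
Share of all gene counts (%) taken by the 85 ribosomal protein genes in each of the 12 libraries, split into large (dark) and small (light) subunit, with the group mean as a red line. In fat the share ran from 0.76 to 1.22% in LYVE1+ and from 1.04 to 1.38% in LYVE1- cells, with library 1 the highest of each sort.

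Markers of T and NK cells moved in part with the ribosomal protein share, and so did those of some other cells. The 13 T and NK cell markers summed to 53.9, 57.9 and 96.3 CPM in aorta LYVE1+ against 105, 92.7 and 114 CPM in LYVE1- libraries, and to 313, 32.6 and 29.3 CPM in fat LYVE1+ against 177, 38.3 and 43.8 CPM in LYVE1- libraries. In each of the 4 groups the library with the most of these markers also had the highest ribosomal protein share. The order was not kept throughout. Aorta LYVE1- library 1 had more of these markers than library 2, with a lower share (1.08 against 1.18%). Fat LYVE1+ library 1 had more than fat LYVE1- library 1, also with a lower share (1.22 against 1.38%). Gzmb and Klrb1c were at 0 in all aorta LYVE1+ libraries, and all 13 were counted in each other group. Eosinophil markers summed to 5.05 to 5.47 CPM in aorta LYVE1+ against 47.1 to 147 CPM in LYVE1- libraries, and to 8.73 to 101 CPM in fat LYVE1+ against 140 to 369 CPM in LYVE1- libraries. Mast cell markers differed in the aorta, with 1.84 to 12.7 CPM in LYVE1+ against 47.4 to 80.4 CPM in LYVE1- libraries, but overlapped in fat, with 51.3, 13.8 and 2.13 CPM in LYVE1+ against 17.6, 10.6 and 10.3 CPM in LYVE1- libraries. Dendritic cell markers summed to 848 to 1010 CPM in aorta LYVE1+ against 1020 to 1250 CPM in LYVE1- libraries. In fat they summed to 988, 932 and 879 CPM in LYVE1+ against 1100, 1030 and 937 CPM in LYVE1- libraries. Adipocyte markers summed to 6.86 to 11.9 CPM in aorta LYVE1+ against 12.2 to 18.5 CPM in LYVE1- libraries. In fat they summed to 149, 35.3 and 42.4 CPM in LYVE1+ against 158, 52.5 and 63.1 CPM in LYVE1- libraries. Fibroblast, endothelial and neutrophil markers were also highest in library 1 of each fat sort. In the aorta their sums overlapped between the sorts. Aorta LYVE1+ library 2, with the lowest share of its sort, had the most fibroblast (2690 CPM) and endothelial (51.8 CPM) markers there. Within aorta LYVE1+ cells, library 3 had the highest share. It had the lowest mast cell (1.84 CPM), B cell (735 CPM), dendritic cell (848 CPM) and adipocyte (6.86 CPM) sums. Between the sorts, B cell markers went against the share in fat, with 863 to 1450 CPM in LYVE1+ against 620 to 683 CPM in LYVE1- libraries. They overlapped in the aorta, with 735 to 1020 CPM in LYVE1+ against 716 to 990 CPM in LYVE1- libraries. Within groups they went both ways. The lowest B cell sum, 620 CPM, was in fat LYVE1- library 1, which had the highest share. The highest, 1450 CPM, was in fat LYVE1+ library 1, which had the highest share of its sort. In aorta LYVE1- libraries 1 to 3 the sums of 716, 845 and 990 CPM rose with the share. The part of these cells in the ribosomal protein values was not tested. With mitochondrial and erythroid genes left out of the total, the share was 1.38, 0.87 and 0.781% in fat LYVE1+ against 1.58, 1.08 and 1.13% in LYVE1- libraries, and the order of the libraries was as before.

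**Figure D2:**
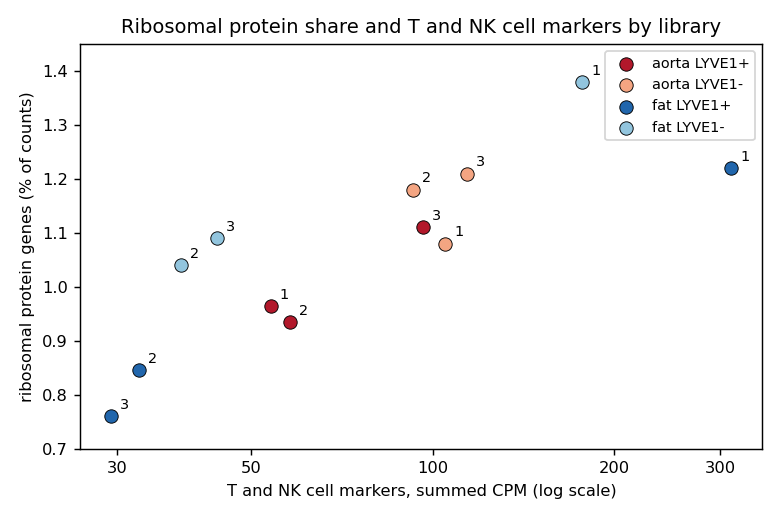
Ribosomal protein share of counts (%, vertical axis) against summed T and NK cell markers (CPM, log scale) in the 12 libraries, coloured by group and labelled with the library number. Fat LYVE1+ library 1 (313 CPM, 1.22%) and fat LYVE1- library 1 (177 CPM, 1.38%) lie at the upper right and fat LYVE1+ libraries 2 and 3 (32.6 and 29.3 CPM) at the lower left.

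Levels differed widely between members, although their proteins are needed in nearly equal numbers. Per kilobase of annotated exon (mean of 12 libraries), Rplp1 was highest with 473.9 CPM per kb, and Rplp0 had 357.6, Rpl4 320.1 and Rpl32 241.9, all among the highest. Rplp0 and Rplp1 form the stalk of the large subunit that recruits the translation factors, and Rpl4 lines the tunnel through which the new chain leaves. The lowest tested members were Rpl24 with 6.48 CPM per kb, Rpl12 with 8.596 and Rpl23a with 8.604. The annotated exon length includes alternative ends, and 51-base windows of a member's transcript that also occur in other genes' transcripts made up a median of 47.5% over the tested members. That share was 81.7% in Rpl24 and 85.5% in Rpl23a, and how multiply mapped reads were counted is not given in the sources used here, so the order of levels between members is uncertain. The members lie on 19 chromosomes, 4 of them on X. Inside 30 members lie 58 genes of small nucleolar RNAs, the guides that modify ribosomal RNA, and 24 members overlap a gene on the opposite strand, which counting without strand would not separate.
By subunit, the median level per kb was 34.05 CPM in LYVE1+ and 39.77 CPM in LYVE1- cells of the aorta for the large subunit, and 33.03 CPM in LYVE1+ and 43.58 CPM in LYVE1- cells of fat. For the small subunit it was 50.97 CPM in LYVE1+ and 60.11 CPM in LYVE1- cells of the aorta, and 51.14 CPM in LYVE1+ and 61.2 CPM in LYVE1- cells of fat. The members that varied most over the 12 libraries were Rpsa (SD of log2 CPM 0.55), Rpl12 (0.47), Rpl39 (0.45), Rpl24 (0.42) and Rps12 (0.41), against a median of 0.27 over the members tested. The 3 paralogs not tested in the main fit were near 0. Rpl3l had at most 9 counts in a library, Rpl39l at most 10, and Rpl10l 1 count in 1 library and none in the others.

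The first comparison asked how aortic macrophages with LYVE1 differ from those without it. Nearly all members leaned the same way, by little: 78 of 82 had a negative log2 fold change (51.4% of all genes did), with a median of -0.22 (quartiles -0.31 and -0.14), that is 1.17-fold lower in LYVE1+ cells, against a median of -0.01 over all 14216 genes tested. All 33 small subunit members were negative (median -0.25), and 45 of 49 large subunit members were (median -0.21). No member passed the test (edgeR quasi-likelihood, Benjamini-Hochberg adjusted p below 0.05), where 0.542% of all genes did, and 3 (2 of them lower) had an unadjusted p under 0.05, where 11.3% of all genes did. DESeq2 called none either, against 2.53% of all genes. Members deviate together within a library, so these counts are not counts of independent observations. The median log2 CPM over members was 6.31, 6.25 and 6.505 in aorta LYVE1+ libraries 1 to 3. It was 6.517, 6.702 and 6.689 in aorta LYVE1- libraries. Its SD between replicates was 0.217 when pooled over the 4 groups of both tissues, with fat LYVE1+ libraries at 6.74, 6.248 and 6.093. In 23 members (28%) all LYVE1+ libraries lay below all LYVE1- libraries, as they did in 11.3% of all genes.

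Rps26, a small subunit protein at the channel where the messenger RNA leaves the ribosome, had the smallest p in the aorta (ENSMUSG00000025362, chr10:128624534-128626747, GRCm38). Its level was 91.42, 88.47 and 89.01 CPM in aorta LYVE1+ libraries, against 121.9, 125.6 and 120.6 CPM in LYVE1- libraries. The groups stand apart with little spread in each (log2 fold change -0.45, SE 0.14, edgeR adjusted p = 0.235), and without both fat libraries numbered 1 in the shared fit Rps26 was called (-0.45, SE 0.11, adjusted p = 0.0411). Rps7, a small subunit protein also known for binding the p53 regulator Mdm2, had 62.29, 73.51 and 80.83 CPM in LYVE1+ against 98.51, 94.96 and 86.11 CPM in LYVE1- libraries, again without overlap (-0.37, SE 0.17, adjusted p = 0.428). Rpl10a, of the L1 stalk through which spent transfer RNA leaves, had the lowest value of the aortic contrast (-0.50, SE 0.26, adjusted p = 0.502). Its level was 40.07, 42.77 and 57.13 CPM in LYVE1+ libraries, against 58.72, 69.53 and 70.08 CPM in LYVE1- libraries.
Rpl7l1, a paralog of Rpl7 found on early precursors of the large subunit, ran against the family. It had 78.58, 81.4 and 79.33 CPM in aorta LYVE1+ libraries, against 53.7, 62.27 and 62.49 CPM in LYVE1- libraries. No other member had its 3 LYVE1+ values all above its 3 LYVE1- values (0.42, SE 0.14, adjusted p = 0.246), a pattern of 11.1% of all genes. Rpl29 and Rpl41 were the next highest, at 0.06 (SE 0.23) and 0.02 (SE 0.20), which is within their error of 0.

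The letters in front of the library numbers in the titles differ along this contrast. Aorta LYVE1+ libraries 1 and 2 and all fat libraries carry 1 prefix, and aorta LYVE1+ library 3 and all aorta LYVE1- libraries carry another, whose meaning the labels do not give. With the prefix in the model the median over members was -0.06 (53 of 82 negative) in the aorta. Within the second prefix the share of counts was 1.11% in LYVE1+ library 3, against 1.08, 1.18 and 1.21% in the LYVE1- libraries. Rps26 in that library (89.01 CPM) lay as far below the LYVE1- libraries as in the other LYVE1+ libraries.

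In fat the lean was slightly larger and its spread larger too. Of 82 members, 78 had a negative log2 fold change (49.4% of all genes did), with a median of -0.28, that is 1.21-fold lower in LYVE1+ cells, against 0.00 over all genes (47 of 49 large, median -0.26; 31 of 33 small, median -0.32). No member was called, where 3.93% of all genes were, and 17 (20.7%) had an unadjusted p under 0.05, all lower, against 8.22% of all genes. DESeq2 called 3, Rplp0 and Rpl39 among them, or 3.66%, against 7.07% of all genes. In 12 members (14.6%) the LYVE1+ libraries all lay below the LYVE1- libraries, against 9.83% of all genes. Taken by library number, 60 members (73.2%) were lower in LYVE1+ cells in all 3 pairs and 1 was higher in all 3, against 21.7% of all genes in each direction. Libraries of the same number deviated together in fat, but libraries 2 and 3 did so across numbers as well. With the number as a block, 5 members (6.1%) were called lower, among them Rpsa, Rpl10a, Rplp0 and Rpl39. Of all genes, 6.44% were called in either direction.

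**Figure D3:**
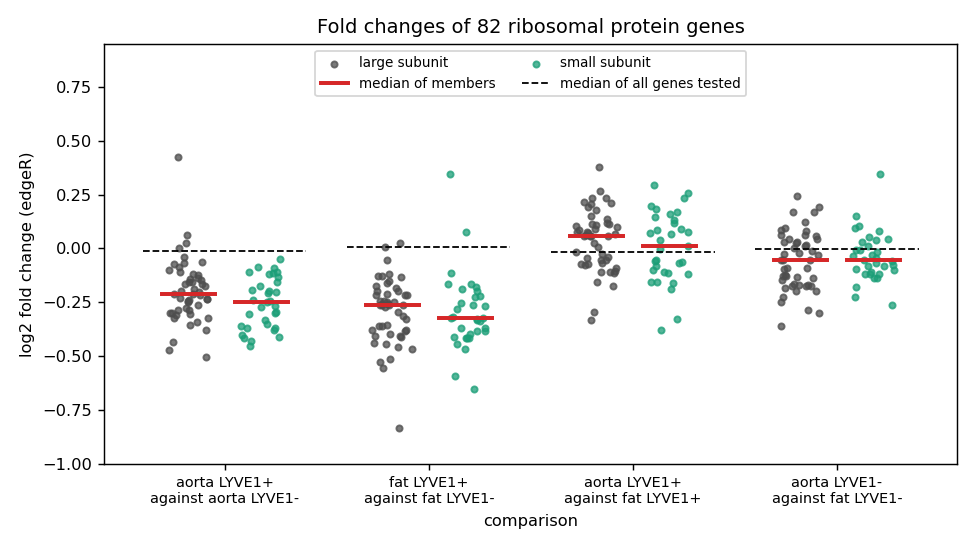
Log2 fold change (edgeR, vertical axis) of each of the 82 tested members in the comparisons of 2 groups, with large subunit members in grey and small subunit members in green; red bars are medians per subunit and dashed lines the median of all 14216 genes. Most points lie below 0 in both LYVE1 comparisons (medians -0.22 in the aorta and -0.28 in fat over all members), and around 0 between tissues with all 12 libraries.

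Rpl39, a small protein in the wall of the exit tunnel (chrX:37082520-37085402), had the lowest log2 fold change in fat. It had 19.58, 16.55 and 12.4 CPM in LYVE1+ libraries, against 39.15, 23.06 and 24.09 CPM in LYVE1- libraries (-0.84, SE 0.26, edgeR adjusted p = 0.0983; with the block 0.0408). Its groups stand apart, but fat LYVE1- library 1 is far above its other libraries. Without both libraries numbered 1 it was not called (-0.70, SE 0.25, adjusted p = 0.145).
Rplp0, the core of the stalk, had 642.0, 436.8 and 407.7 CPM in fat LYVE1+ libraries, against 812.1, 699.2 and 674.5 CPM in LYVE1- libraries (-0.56, SE 0.19, adjusted p = 0.141; with the block 0.0192; without both libraries numbered 1 -0.70, adjusted p = 0.0123). Rpsa, a small subunit protein also known as a laminin receptor, had 155.3, 64.39 and 55.64 CPM in LYVE1+ libraries, against 217.5, 116.6 and 96.76 CPM in LYVE1- libraries. Its groups overlap only through LYVE1+ library 1 (-0.65, SE 0.37, adjusted p = 0.446; with the block -0.71, SE 0.15, adjusted p = 0.0224; without both libraries numbered 1 -0.83, SE 0.21, adjusted p = 0.0337).

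Rps29, a zinc-binding protein of the small subunit, was the exception in fat. It had 103.6, 108.8 and 92.43 CPM in LYVE1+ libraries, against 75.62, 80.77 and 83.72 CPM in LYVE1- libraries, without overlap, the only such member in that direction, as in 9.12% of all genes (0.34, SE 0.16, adjusted p = 0.319; without both libraries numbered 1 0.29, SE 0.20, adjusted p = 0.498). In the aorta its groups overlapped, with 75.12, 83.96 and 83.6 CPM in LYVE1+ against 66.08, 100.1 and 100.1 CPM in LYVE1- libraries. Rps21 (0.07, SE 0.22) and Rpl36al (0.02, SE 0.18) were the next highest in fat and changed sign when single libraries were left out.

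**Figure D4:**
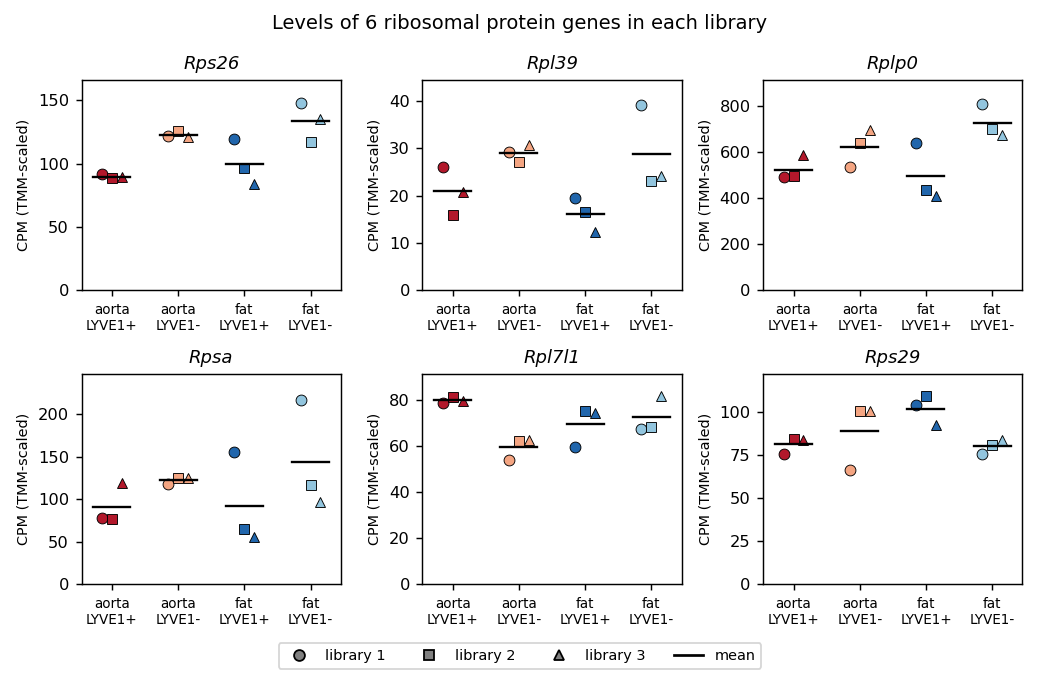
Level in each library (TMM-scaled CPM, vertical axes from 0) of 6 members, by group; symbols mark the library number and bars the mean of 3. Rps26 separates the sorts in the aorta (88.47 to 91.42 CPM in LYVE1+, 120.6 to 125.6 CPM in LYVE1-), Rpl7l1 and Rps29 lie higher in LYVE1+ cells of 1 tissue each, and library 1 is the highest of both fat groups for Rps26, Rpl39, Rplp0 and Rpsa.

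Fat LYVE1+ library 1 weighs on the fat comparison. Without it 12 of 83 members were called lower in fat (14.5%, against 6.9% of all genes called in either direction). Among them were Rpl3, Rpl4, Rpl12, Rpl13, Rpl32, Rpl35a, Rplp0, Rps2, Rps19, Rps26 and Rpsa. The added member was Rpl39l, which passed the low-count filter in that fit. It went the other way (log2 fold change 3.0, SE 1.22, edgeR adjusted p = 0.174), on at most 10 counts per library. Without both fat libraries numbered 1, 7 of 83 were called lower (8.43%, against 6.01% of all genes called in either direction). Among them were Rpl3, Rpl4, Rpl32, Rplp0, Rps19 and Rpsa. In that fit 80 members were negative, with a median of -0.34. As each of the 12 libraries was left out in turn, the median over members ranged from -0.49 to -0.13.

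Averaged over both tissues, 2 members fell in LYVE1+ cells. Rps26 was 1.35-fold lower (log2 fold change -0.44, SE 0.10, edgeR adjusted p = 0.0223). In fat its level was 119.0, 96.71 and 84.16 CPM in LYVE1+ against 147.9, 117.2 and 135.2 CPM in LYVE1- libraries, where LYVE1+ library 1 overlaps with LYVE1- library 2. Rpl39 was 1.57-fold lower (-0.65, SE 0.18, adjusted p = 0.0453). Both were also called without both fat libraries numbered 1 (adjusted p = 0.00444 for Rps26 and 0.0331 for Rpl39). Its aortic level was 26.03, 15.86 and 20.78 CPM in LYVE1+ against 29.29, 27.1 and 30.79 CPM in LYVE1- libraries, without overlap. The counts behind them ran from 620 to 3703 per library for Rps26 and from 102 to 799 for Rpl39.
The 2 calls are 2.44% of the members, against 6.34% of all genes called. DESeq2 called 8 (9.76%, against 10.8% of all genes). In all, 80 of 82 members were negative (median -0.26), against 50.7% of all genes, and 28 (34.1%) had an unadjusted p under 0.05, all lower, against 10.8% of all genes. Only Rpl3, Rpl4 and Rpl39 were below without overlap in both tissues (3.66%, against 2.69% of all genes). Rpl3 had 183.3, 192.0 and 221.6 CPM in aorta LYVE1+ against 238.1, 253.5 and 255.4 CPM in LYVE1- libraries, and 259.7, 185.7 and 171.5 CPM in fat LYVE1+ against 312.6, 259.8 and 265.3 CPM in LYVE1- libraries (average -0.38, SE 0.12, adjusted p = 0.0721).
With the library number as a block 17 members were called in the average, all lower (20.7%, against 10.3% of all genes called in either direction). That block also pairs the aortic libraries by number, although these did not deviate together (correlations -0.0441, -0.0767 and -0.17). Without both fat libraries numbered 1 there were 19 calls of 83 (22.9%, against 10.6%). With the library prefix in the model there were 0 (1.96% of all genes), the adjusted p being 0.125 for Rps26 and 0.202 for Rpl39 at values of -0.44 and -0.66. Rps26 also lost its call when any aorta LYVE1+ library, aorta LYVE1- library 1, or fat LYVE1+ library 2 or 3 was left out, with an adjusted p of at most 0.0639. That of Rpl39 ended without any single library other than aorta LYVE1+ 1, fat LYVE1+ 1 and fat LYVE1- 2, with at most 0.116.

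The LYVE1 contrast of the members was not called different between the tissues. The difference of the contrasts, aorta minus fat, had a median of 0.06 over members (29 of 82 negative, against 52.1% of all genes), with 0 called where 0.155% of all genes were. DESeq2 called none. An unadjusted p under 0.05 was found for 1 member, against 6.06% of all genes. That was Rpl7l1, with 0.42 in the aorta and -0.06 in fat (difference 0.48, SE 0.19, adjusted p = 0.756). Rps29 went the opposite way (difference -0.48, SE 0.23, adjusted p = 0.826). Rpl7l1 in fat had 59.69, 75.05 and 74.28 CPM in LYVE1+ against 67.43, 68.4 and 81.73 CPM in LYVE1- libraries, which overlap.

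Between the tissues no member was called different in either sort, and the medians lay near 0 with all libraries. In LYVE1+ cells 35 of 82 were negative in aorta against fat (median 0.06; 51.4% of all genes negative), and in LYVE1- cells 53 were (median -0.06; 50.4% of all genes negative). The calls numbered 0 in both, where 3% of all genes were called in LYVE1+ and 2.48% in LYVE1- cells, none had an unadjusted p under 0.05 (15.3% and 15.2% of all genes did), and DESeq2 called none. Without both fat libraries numbered 1, 9 of 83 members were negative in LYVE1+ cells (median 0.22) and 23 in LYVE1- cells (median 0.10), again with 0 called. The extremes with all libraries were Rpl39 at 0.38 (SE 0.25) and Rps21 at -0.38 (SE 0.22) in LYVE1+ cells, and Rps27rt at 0.34 (SE 0.42) and Rpl24 at -0.36 (SE 0.39) in LYVE1- cells. The median in LYVE1- cells was -0.31 with the library prefix in the model, where all aortic LYVE1- libraries carry another prefix than fat.

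Paralogs of the family were compared with their parents as levels per library. Rps27l, a copy known as a p53 target, had a mean of 58.06 ± 0.309 CPM in LYVE1+ and 60.04 ± 11.26 CPM in LYVE1- cells of the aorta, and 62.97 ± 9.928 CPM in LYVE1+ and 72.04 ± 1.913 CPM in LYVE1- cells of fat (SD, n = 3 each). Its parent Rps27 had 155.9 ± 4.699 CPM in LYVE1+ and 185.1 ± 34.83 CPM in LYVE1- cells of the aorta, and 177.9 ± 53.88 CPM in LYVE1+ and 192.3 ± 8.858 CPM in LYVE1- cells of fat. Neither gene was called in any comparison. Rpl22l1, which can take the place of Rpl22, had a log2 fold change of -0.11 (SE 0.24) in the aorta and -0.17 (SE 0.25) in fat. Rpl22 had -0.22 (SE 0.21) in the aorta and -0.15 (SE 0.21) in fat. Rpl36al and Rpl36a had -0.12 (SE 0.18) and -0.30 (SE 0.18) in the aorta, and 0.02 (SE 0.18) and -0.31 (SE 0.18) in fat.
Rps27rt, a retrogene copy of Rps27, shows why such copies are uncertain: 91% of its 51-base windows also occur in other genes. The windows of Rps27 and Rps27rt around the start share a run, in capitals.
Rps27, chr3:90213619-90213668, minus strand: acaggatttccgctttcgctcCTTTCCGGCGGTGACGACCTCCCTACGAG
Rps27rt, chr9:114982710-114982759, minus strand: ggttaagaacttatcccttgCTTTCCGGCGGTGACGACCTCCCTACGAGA
The run goes on to 38 bases within the first 50 transcribed bases, from position 2 of Rps27 and position 1 of Rps27rt. The bases before it differ. Rps27rt had 2.117 to 6.194 CPM over the 12 libraries, against 143.2 to 239.9 CPM for Rps27. Counts on the 258 annotated pseudogenes of the family and 6 coding genes named as pseudogenes were together 1.29 to 1.54% of the members' counts. The annotated pseudogene Rps4l had 19.84 to 21.11 CPM in aorta LYVE1+ and 14.85 to 16.99 CPM in LYVE1- libraries, without being called (0.34, SE 0.19, adjusted p = 0.526).

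Of the ribosomal proteins that the symbol rule leaves out, Fau is made as a fusion to a ubiquitin-like protein, and Rack1 is a scaffold on the small subunit. Both were negative in both tissues and neither was called. Rack1 had 209.8, 166.5 and 148.4 CPM in fat LYVE1+ against 341, 240.7 and 229.5 CPM in LYVE1- libraries, without overlap (-0.63, SE 0.19, edgeR adjusted p = 0.0848).

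Lists of genes that work with the ribosome were set beside the members. Of 59 ribosome biogenesis genes, 41 were negative in fat (median -0.23) and 3 fell in fat LYVE1+ cells, against 2.1% of all genes called lower. Dkc1, the pseudouridine synthase that modifies ribosomal RNA, had 16.33 ± 5 CPM in LYVE1+ and 36.67 ± 5.45 CPM in LYVE1- cells of fat (SD, n = 3 each; -1.18, SE 0.22, adjusted p = 0.00905). Npm1, a nucleolar chaperone, had 143.9 ± 18.8 CPM in LYVE1+ and 213.6 ± 10.8 CPM in LYVE1- cells (-0.57, SE 0.13, adjusted p = 0.0233). Utp18, of the small subunit processome, had 19.35 ± 2.03 CPM in LYVE1+ and 34.47 ± 6.67 CPM in LYVE1- cells (-0.84, SE 0.18, adjusted p = 0.0212). Without both fat libraries numbered 1 all 3 were called as well. The same 3 were called in the average over tissues, and none of the list was called in the aorta, where 37 were negative (median -0.10). Each of the 3 calls in fat ended without fat LYVE1+ library 2 or 3, that of Utp18 also without fat LYVE1- library 1 or 3 and that of Npm1 without any single fat LYVE1- library, with an adjusted p of at most 0.0551 for Dkc1, 0.0994 for Utp18 and 0.125 for Npm1. All 3 also ended with only the fat groups in the edgeR fit (adjusted p = 0.0725 for Dkc1, 0.112 for Utp18 and 0.136 for Npm1). That of Npm1 ended with no filter on low counts as well (0.0627). With the library prefix in the model the average calls of Utp18 (adjusted p = 0.0803) and Npm1 (0.0897) ended, and that of Utp18 also ended without aorta LYVE1+ library 2 or 3, aorta LYVE1- library 2, or fat LYVE1+ library 2 or 3 (at most 0.0629).
The 7 elongation factors, which deliver transfer RNA and move the ribosome along, had 6 negative in each tissue (medians -0.17 in the aorta and -0.29 in fat) and none called. Of 32 initiation factors, 21 were negative in the aorta and 26 in fat (medians -0.04 and -0.13). Eif3l, a subunit of the initiation factor eIF3, fell in fat LYVE1+ cells (-0.47, SE 0.12, adjusted p = 0.0466), and this call ended in most alternatives, with an adjusted p of up to 0.217 (0.0851 without both fat libraries numbered 1). RNA polymerase I and its factors, which make the ribosomal RNA precursor, had medians of 0.03 in the aorta and 0.00 in fat over 20 genes. The growth control list (mTOR and Myc pathway genes) had medians of -0.02 in the aorta and 0.06 in fat over 18 genes. Neither list had a call in a LYVE1 comparison.
The mitochondrial ribosome, a separate machine with its own proteins, leaned the other way in the aorta. Of 77 tested Mrpl and Mrps genes, a list added after results were seen, 9 were negative in the aorta (median 0.27) and 29 in fat (median 0.08), with none called in either.
Between tissues, Eif4e, the cap-binding protein, was higher in the aorta in both sorts, with 181.5 ± 29.2 CPM in aorta and 78.36 ± 0.816 CPM in fat LYVE1+ cells (1.21, SE 0.17, adjusted p = 0.00255), and 193.5 ± 27.7 CPM in aorta and 83.21 ± 15.3 CPM in fat LYVE1- cells (1.22, SE 0.17, adjusted p = 0.00278). Ddit3, a stress-response transcription factor from the list of ribosomal stress genes, was lower in the aorta in both sorts (-0.88, SE 0.15, adjusted p = 0.00831 in LYVE1+ cells; -0.76, SE 0.15, adjusted p = 0.0202 in LYVE1- cells). With the library prefix in the model the LYVE1- call of Eif4e (adjusted p = 0.687) and that of Ddit3 (0.722) ended. The LYVE1- call of Ddit3 also ended without any single aorta LYVE1- library and without fat LYVE1- library 1 or 3 (at most 0.094). With only the LYVE1- groups in the edgeR fit it ended too (adjusted p = 0.0597).

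**Figure D5:**
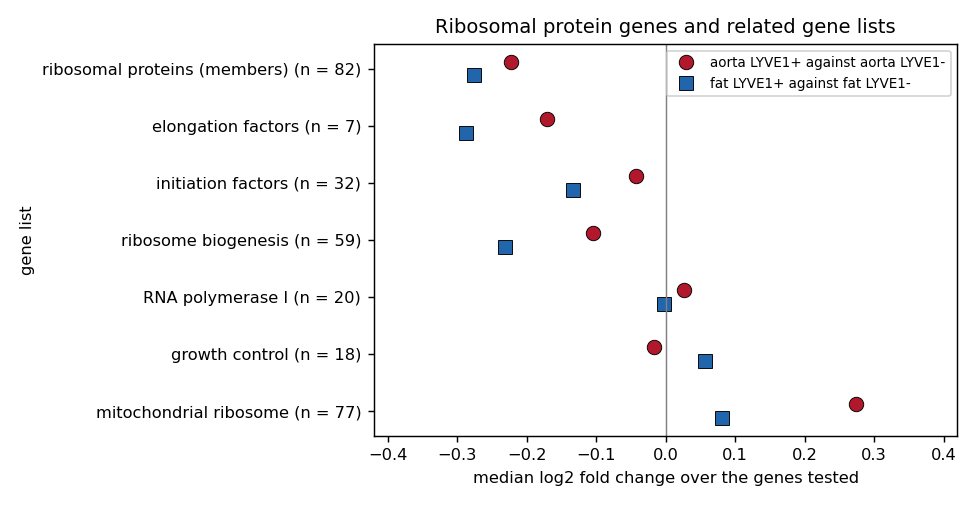
Median log2 fold change (horizontal axis) of LYVE1+ against LYVE1- cells in the aorta (circles) and in fat (squares) for the ribosomal protein genes and 6 related lists, with the number of genes tested. Medians of the cytosolic ribosomal proteins (-0.22 and -0.28) and elongation factors (-0.17 and -0.29) lie below 0 in both tissues, and the mitochondrial ribosome lies above it (0.27 and 0.08).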

How the data were processed

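The authors deposited raw counts for 46517 genes in 12 libraries and a table of log2 CPM for the 25331 genes with a count. Per the submitters' processing notes, the tools included STAR 2.5.2b, featureCounts 1.5.0 and edgeR 3.14.0, with GRCm38; the annotation, strand setting and treatment of multiply mapped reads are not given in the sources used here. The deposited log2 CPM equalled edgeR's (TMM, prior count 0.25). Symbols, coordinates and exon lengths came from GENCODE M21, start sequences from RefSeq (GRCm38.p6).

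Counts were tested with edgeR 4.0.16 (R 4.3.3): 1 quasi-likelihood fit of the 12 libraries, 1 mean per group, TMM factors, edgeR's low-count filter (14216 genes), 8 residual degrees of freedom, two-sided, Benjamini-Hochberg adjusted p below 0.05 as a call. SE is the absolute log2 fold change divided by the root of F. Levels are TMM-scaled CPM, and shares and marker sums use the plain library size. Alternatives used DESeq2 1.42.0, limma 3.58.1, other factors, no filter, a library number block, the library prefix, and fewer libraries. Same-numbered fat libraries deviated together (correlations 0.486, 0.279 and 0.184, each over 0.1), and the block was used on that ground; differently numbered libraries 2 and 3 did so as well (0.225 and 0.192), so the numbers set library 1 apart but do not pair 2 with 2 and 3 with 3. Same-numbered aortic libraries did not (-0.0441, -0.0767 and -0.17), yet the block paired them too. The code was tested on simulated data.

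Members and lists were chosen with earlier results of these data known. Named genes are the called members, the 3 of smallest p and of largest and smallest fold change per comparison, those of extreme level or spread, paralogs, and called genes of other lists. Rps19bp1, which matches the letters but is no ribosomal protein, 6 coding genes named as pseudogenes and 10 Rps6k kinases were left out. Rpl3, Rpl4, Rps4l and the groups of members called in an alternative were named after their values were seen. Some results of genes so named are not reported here.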

Additional observations from a re-analysis of the deposited data

How the results depend on the processing

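The count of called members depended on the setting. Shares of all genes given beside it are of calls in either direction. In fat, where the main count was 0, it was 3 with DESeq2 (3.66%, against 7.07% of all genes). It was 5 with the replicate block (6.1%, against 6.44%) and 7 without both fat libraries numbered 1 (8.43%, against 6.01%). With limma on the deposited log2 CPM it was 1. As single libraries were left out it ran from 0 to 12, the 12 (14.5%, against 6.9%) without fat LYVE1+ library 1. In the average over tissues, with 2, it was 8 with DESeq2 (9.76%, against 10.8%) and 17 with the replicate block (20.7%, against 10.3%). It was 0 with the library prefix (against 1.96%) and 19 without both fat libraries numbered 1 (22.9%, against 10.6%). As single libraries were left out it ran from 0 to 24, the 24 (28.9%, against 11%) without fat LYVE1+ library 1. In the aorta it was 1 (Rps26, -0.45) without both fat libraries numbered 1 (1.2%, against 3.83%) and 0 otherwise. The difference between tissues and both tissue comparisons had 0 under every alternative that gave a value; the replicate block gave none for the tissue comparisons, since the fat and aortic numbers mark different blocks. The median of aorta against fat in LYVE1- cells was -0.31 with the library prefix, against -0.06. The other medians moved by less than the SD between replicates pooled over the 4 groups (0.217), although that of the aorta was -0.06 with the prefix.

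As single libraries were left out, the medians ranged from -0.32 to -0.15 in the aorta, -0.49 to -0.13 in fat, -0.36 to -0.19 in the average, -0.09 to 0.25 in the difference, -0.07 to 0.22 in LYVE1+ and -0.12 to 0.10 in LYVE1- cells between tissues. In no case was the cause tested. Over all genes, calls in the aorta numbered 77, against 360 with DESeq2, 336 with no filter, 243 with the replicate block, 294 with only the aortic groups, 2 with the prefix and 566 without both fat libraries numbered 1. In fat there were 558, against 1005 with DESeq2, 915 with the replicate block, 206 with only the fat groups and 887 without both libraries numbered 1.

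Values near 0 changed sign. As single libraries were left out, Rpl29 ranged from -0.148 to 0.189 and Rpl41 from -0.127 to 0.118 in the aorta, and Rps21 from -0.203 to 0.247 and Rpl36al from -0.0828 to 0.209 in fat. The average of Rpl36al ranged from -0.102 to 0.0449, and the tissue difference of Rpl23a from -0.376 to 0.0462. Rps21 in fat was -0.042 without both libraries numbered 1, and Rpl36al in fat was -0.00271 with upper-quartile factors. With the prefix, the average of Rpl36al was 0.00934, and Rpl22 was -0.0994 and Rplp1 -0.108 in aorta against fat LYVE1- cells. Depth limits the lowest members most: Rpl24 had 44 to 137 counts per library and Rps27rt 21 to 151.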
